A study of Danio rerio with 6 samples.

Results

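Embryonic zebrafish take up salts and excrete acid and ammonia through ionocytes, mitochondria-rich cells scattered among the keratinocytes of the skin. Ionocyte fate is set in epidermal precursors by the forkhead transcription factors Foxi3a and Foxi3b, while Delta-Notch signals limit how many precursors take it. The resulting cell types differ in what they transport. HR cells secrete acid with a proton pump and carbonic anhydrases and release ammonia, NaR cells take up calcium through Trpv6, and NCC cells take up sodium and chloride through Slc12a10.2. The genes described here were 10 markers and regulators of these cells, chosen by their zebrafish symbols: foxi3a, foxi3b, gcm2, ca2, ca15a, rhcgb, atp6v1aa, trpv6, slc12a10.2 and slc4a4b.

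Expression was measured by RNA-seq in heart cells of sqet33mi59BEt zebrafish embryos at 72 hpf. The GFP+ cells, taken as the sinoatrial ring (SAR), were compared with the GFP- cells, taken as the rest of the heart (ROH), to find which genes the ring expresses at a higher level. Each fraction had 3 biological replicates, sorted by FACS from dissociated hearts of pooled embryos. The line is an enhancer trap, so that GFP marks whatever cells the trapped enhancer is active in, and the hearts were collected from fragmented embryos. The authors filtered the fragments through meshes and picked intact GFP-positive hearts under a fluorescence microscope. They imaged GFP as a ring of cells at the inflow of the atrium. By qPCR they found GFP transcripts enriched in the GFP+ fraction and the neuronal gene neurogenin1 undetected in both fractions. All 6 libraries shared the line, the stage and the dissociation, and no other allele or agent was given in the labels.

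The deposited values covered 31465 genes by Ensembl identifier, and symbols came from a separate name table. A single identifier was found for 7 of the 10 genes, including trpv6 and gcm2, which the table lists in human capitals. For rhcgb, slc4a4b and atp6v1aa the table gave only human symbols shared by several identifiers: RHCG by 3, SLC4A4 by 2 and ATP6V1A by 2. These 7 identifiers are described by number, and which of them is the zebrafish gene sought was not determined.

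The estimated counts assigned to genes summed to 7495108, 35013935 and 77243214 in SAR replicates 1, 2 and 3, and to 999437, 23495798 and 19081874 in ROH replicates 1, 2 and 3. An amount of 3 counts, taken as the limit that a count of 0 allows, corresponded to 0.437, 0.0875 and 0.0392 CPM (the count as a share of the library total, scaled by edgeR's TMM factors) in SAR replicates 1, 2 and 3, against 2.81, 0.121 and 0.158 CPM in ROH replicates 1, 2 and 3. These limits cover counting error only, since reads amplified by PCR without molecular identifiers are not independent molecules. ROH replicate 1 could therefore not resolve levels below 2.81 CPM, a range that holds every ROH value of foxi3a, foxi3b and gcm2. As in any bulk comparison, a lower level may mean fewer cells of a type or less RNA per cell, and these cannot be told apart.

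Both foxi3 genes were higher in SAR, by 5.87-fold for foxi3a and by 5.97-fold for foxi3b in the fitted model. They were the only 2 of the 7 ionocyte genes with a single identifier that passed the threshold, a Benjamini-Hochberg adjusted p below 0.05 in edgeR's quasi-likelihood test together with a log2 fold change past 1.5 in size. None passed it as lower, and 0 did so by DESeq2 or had a fitted decrease at an unadjusted edgeR p below 0.05. Over all 21969 tested genes, 624 (2.84%) were called higher and 813 (3.7%) lower in SAR. With any 1 library left out the count of ionocyte genes called higher was 0, except without SAR replicate 2, where it was 2, and over all genes the calls dropped to 369 higher and 442 lower without ROH replicate 2. All 7 genes passed the filter on low counts, which asks for a minimum level in at least 3 libraries. With 0 reads in ROH replicate 1, foxi3b, ca15a and gcm2 could pass it only with the help of SAR libraries. The same held for trpv6, which had 6.21 estimated reads in ROH replicate 3. The median and the separation below therefore include genes admitted through their SAR level, and no shift of the 7 genes as a set can be read from them. The median log2 fold change of the 7 genes was 2.12, the value of ca15a, beside 0.03 over all tested genes. The genes that passed the filter on ROH libraries alone were foxi3a (2.55), slc12a10.2 (0.23) and ca2 (-0.27). Of the 7 genes, 6 were at a higher fitted level in SAR and 1 at a lower level. In 3 of the 7 (foxi3a, foxi3b and ca15a) the lowest SAR library was still above the highest ROH library, and in 0 was the reverse seen. Across all tested genes such separation occurred upwards in 14.3% and downwards in 15.6%. The remaining 4 genes had overlapping groups.

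**Figure D1:**
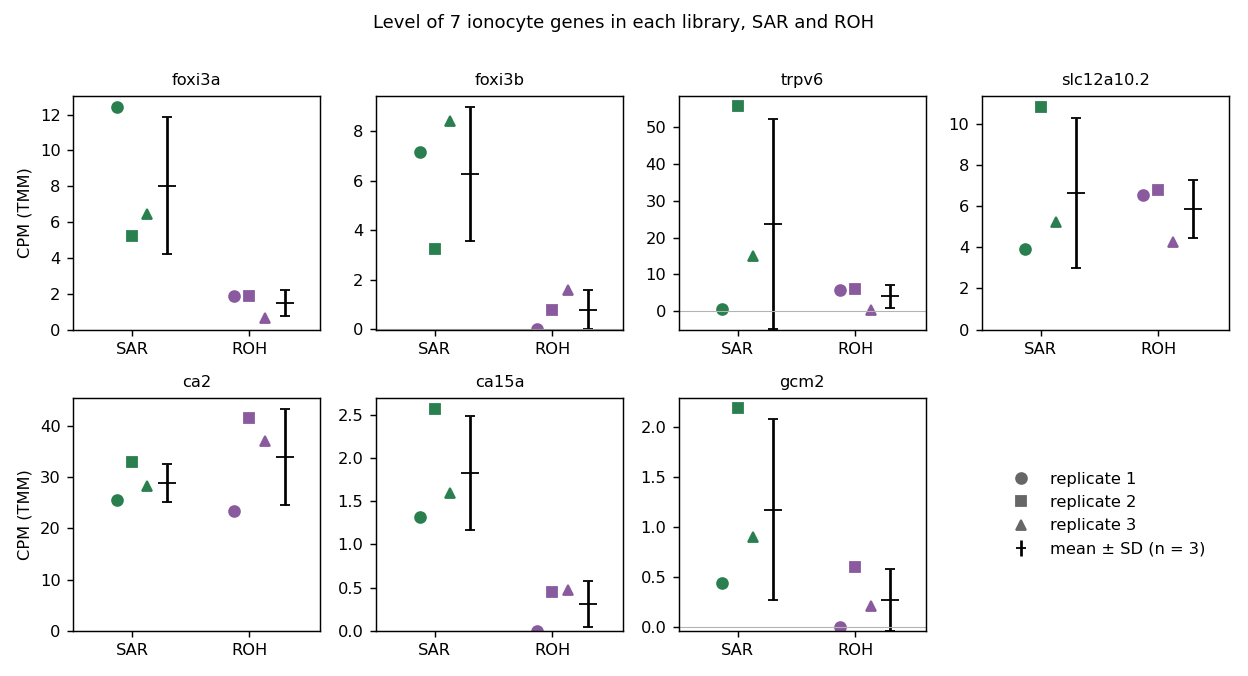
Level of each of the 7 ionocyte genes with a single identifier, in CPM on the TMM scale (vertical axis, a separate linear scale per gene), for the SAR libraries (green, left) and the ROH libraries (purple, right). Symbols mark the replicate and the bar gives the mean ± SD (n = 3). For foxi3a, foxi3b and ca15a all SAR libraries sit above all ROH libraries, while trpv6 and slc12a10.2 peak in SAR replicate 2.

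The foxi3a gene (ENSDARG00000055926) encodes a forkhead factor required for ionocyte specification. It had 12.4, 5.23 and 6.46 CPM in SAR replicates 1, 2 and 3, from 85, 179 and 494 reads, against 1.88, 1.90 and 0.631 CPM in ROH replicates 1, 2 and 3, from 2, 47 and 12 reads. SAR replicate 1 was the highest library, and the lowest SAR library exceeded the highest ROH library, although the 2 reads of ROH replicate 1 fix its level only loosely. The mean was 8.03 ± 3.84 CPM in SAR and 1.47 ± 0.724 CPM in ROH (SD, n = 3 each). For foxi3a the log2 fold change was 2.55 (standard error 0.59, edgeR adjusted p = 0.0308), and the exact two-sided permutation test of the 6 values gave p = 0.1, the smallest it can give with 3 libraries per group. The foxi3a call did not hold when single libraries were left out, except for SAR replicate 2. The edgeR adjusted p was 0.0579 without SAR replicate 1, 0.0582 without SAR replicate 3, and 0.0675, 0.0607 and 0.0838 without ROH replicates 1, 2 and 3, with log2 fold changes between 2.11 and 3.22 over the 6 fits.

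The foxi3b gene (ENSDARG00000009550) encodes the partner factor, which promotes ionocyte differentiation together with Foxi3a. It had 7.15, 3.24 and 8.41 CPM in SAR replicates 1, 2 and 3, from 49, 111 and 643 reads, against 0, 0.767 and 1.58 CPM in ROH replicates 1, 2 and 3, from 0, 19 and 30 reads. Here SAR replicate 3 was the highest and SAR replicate 2 the lowest of the SAR libraries, and the groups did not overlap, although the 0 in ROH replicate 1 allows a level of up to 2.81 CPM. The mean was 6.27 ± 2.69 CPM in SAR and 0.782 ± 0.789 CPM in ROH (SD, n = 3 each), with a log2 fold change of 2.58 (standard error 0.64, edgeR adjusted p = 0.0394, exact permutation p = 0.1). The foxi3b call held without SAR replicate 2 (adjusted p = 0.0191). It was lost in the other leave-one-out fits of edgeR, with an adjusted p of 0.0662 without SAR replicate 1, 0.119 without SAR replicate 3, and 0.0785, 0.180 and 0.0517 without ROH replicates 1, 2 and 3. The log2 fold changes of these fits lay between 2.29 and 3.30.

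The counts of foxi3a and foxi3b were whole numbers in all 6 libraries (within 0.001), so no read had been divided between them and another gene by the estimation. Of the 2 other foxi genes listed, foxi1 had 2.04, 2.54 and 0.431 CPM in SAR replicates 1, 2 and 3, against 0, 0.888 and 1.37 CPM in ROH replicates 1, 2 and 3, with overlapping groups (log2 fold change 0.72, edgeR adjusted p = 0.687). The fourth, foxi2, did not pass the filter on low counts. It had 0, 0.175 and 0.209 CPM in SAR replicates 1, 2 and 3, against 2.81, 0.484 and 0.210 CPM in ROH replicates 1, 2 and 3. Its SAR values thus all lay below its ROH values, though replicate 3 nearly met and ROH replicate 1 was at its limit. The 0 in SAR replicate 1 allows a level of up to 0.437 CPM, above ROH replicate 3. These counts therefore do not fix a direction for foxi2.

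The gcm2 gene (listed as GCM2, ENSDARG00000045413) encodes a transcription factor needed for HR cells and, in the pharyngeal arches, for the parathyroid-like tissue of fish. It had 0.438, 2.19 and 0.902 CPM in SAR replicates 1, 2 and 3, from 3, 75 and 69 reads, against 0, 0.605 and 0.210 CPM in ROH replicates 1, 2 and 3, from 0, 15 and 4 reads. SAR replicate 1 lay below ROH replicate 2, and all 3 SAR values lay below the limit of ROH replicate 1. The log2 fold change of 1.67 (standard error 0.84) did not pass the test (edgeR adjusted p = 0.283, exact permutation p = 0.2), nor did it in the blocked fit by replicate number (1.99, adjusted p = 0.106), and it ranged from 0.90 to 2.65 when single libraries were left out.

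The genes used by HR cells included a pair of carbonic anhydrases. The ca15a gene (ENSDARG00000015654) encodes a membrane-bound carbonic anhydrase of the apical side of HR cells. It had 1.31, 2.57 and 1.59 CPM in SAR replicates 1, 2 and 3, against 0, 0.444 and 0.474 CPM in ROH replicates 1, 2 and 3. Every SAR library was above every ROH library, though the 0 in ROH replicate 1 allows a level above all 3 SAR values. The mean was 1.83 ± 0.659 CPM in SAR and 0.306 ± 0.265 CPM in ROH (SD, n = 3 each). The log2 fold change of ca15a was 2.12 (standard error 0.63), with an edgeR adjusted p of 0.0727 and an exact permutation p of 0.1, so that it missed the threshold.

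The ca2 gene (ENSDARG00000014488) encodes a cytosolic carbonic anhydrase that is found in many cell types besides ionocytes. It had 25.5, 32.9 and 28.2 CPM in SAR replicates 1, 2 and 3, against 23.4, 41.5 and 36.9 CPM in ROH replicates 1, 2 and 3. The lowest ROH library lay below all SAR libraries, while the other two lay above them. For ca2 the log2 fold change was -0.27 (standard error 0.23, edgeR adjusted p = 0.573, exact permutation p = 0.5), a difference within the spread of the replicates.

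Rhcgb is the ammonia channel of the apical HR cell membrane, and 3 identifiers were listed as RHCG. The first, ENSDARG00000003203, had 41.0, 1.23 and 8.29 CPM in SAR replicates 1, 2 and 3, from 281, 42 and 634 reads, against 0, 0.444 and 0.105 CPM in ROH replicates 1, 2 and 3, from 0, 11 and 2 reads. The groups did not overlap, but the SAR libraries themselves spread over more than an order of magnitude. SAR replicate 1 was the highest, and SAR replicate 2 lay below the limit of ROH replicate 1. The mean was 16.8 ± 21.2 CPM in SAR and 0.183 ± 0.232 CPM in ROH (SD, n = 3 each).

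The log2 fold change of RHCG ENSDARG00000003203 was 5.88 (standard error 1.43, edgeR adjusted p = 0.0369, exact permutation p = 0.1), so that it was called higher. Its size depended on SAR replicate 1, without which it was 4.13 (adjusted p = 0.0458). The call was lost without SAR replicate 3 (adjusted p = 0.0521) and without ROH replicates 1, 2 and 3 (0.0997, 0.0996 and 0.115), and the value with the replicate number as a block was 3.99 (adjusted p = 0.0261). With 0 reads in ROH replicate 1, ENSDARG00000003203 could pass the filter on low counts only with the help of SAR libraries. The other 2 RHCG identifiers did not pass the filter. ENSDARG00000007080 had 0, 15 and 6 reads in SAR replicates 1, 2 and 3, against 0, 2 and 11 reads in ROH replicates 1, 2 and 3. ENSDARG00000100265 had 14, 10 and 13 reads in SAR replicates 1, 2 and 3, against 0, 17 and 7 reads in ROH replicates 1, 2 and 3.

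Atp6v1aa is the catalytic A subunit of the V-type proton pump, which every cell uses in its acidic compartments and which HR cells also place at the surface. ENSDARG00000034534, listed as ATP6V1A, had 79.7, 82.1 and 84.6 CPM in SAR replicates 1, 2 and 3, against 119, 80.5 and 84.6 CPM in ROH replicates 1, 2 and 3, with overlapping groups and a log2 fold change of -0.19 (standard error 0.19, edgeR adjusted p = 0.632). ENSDARG00000076318, also ATP6V1A, had 32.5, 22.6 and 23.1 CPM in SAR replicates 1, 2 and 3, against 43.1, 34.1 and 40.0 CPM in ROH replicates 1, 2 and 3. All SAR libraries of ENSDARG00000076318 lay below all ROH libraries, but its log2 fold change of -0.58 (standard error 0.21) did not pass the test (edgeR adjusted p = 0.137, exact permutation p = 0.1). Both fitted levels were thus lower in SAR, by less than the test could call.

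**Figure D2:**
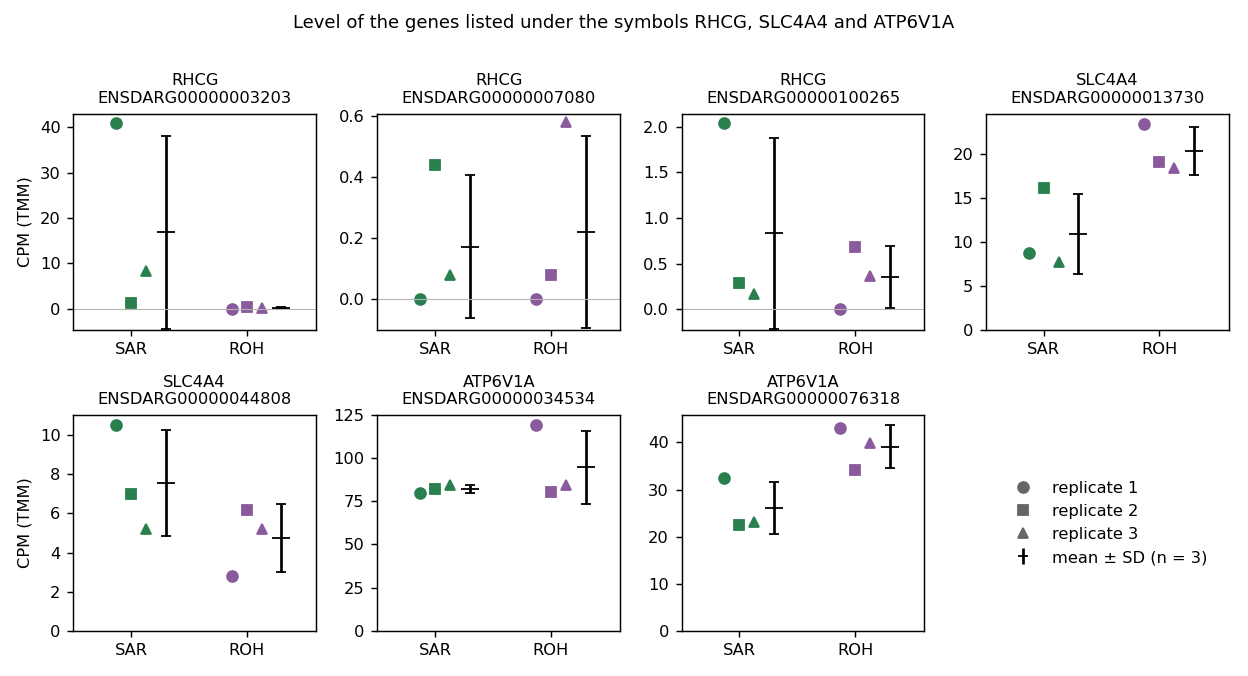
Level of the 7 identifiers listed as RHCG, SLC4A4 and ATP6V1A, in CPM on the TMM scale (vertical axis, a separate linear scale per gene), for SAR (green, left) and ROH (purple, right), with the mean ± SD (n = 3). ENSDARG00000003203 is high in SAR replicate 1 and near 0 in all ROH libraries, and ENSDARG00000013730 and ENSDARG00000076318 are lower in every SAR library than in every ROH library.

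The trpv6 gene (listed as TRPV6, ENSDARG00000014496) encodes the apical calcium channel of NaR cells. It had 0.584, 55.7 and 15.1 CPM in SAR replicates 1, 2 and 3, against 5.63, 5.97 and 0.316 CPM in ROH replicates 1, 2 and 3. SAR replicate 2 was the highest library and SAR replicate 1 was below 2 of the ROH libraries, so the groups overlapped. The mean was 23.8 ± 28.6 CPM in SAR and 3.97 ± 3.17 CPM in ROH (SD, n = 3 each). The log2 fold change of trpv6, 2.77, had a standard error of 1.38 and did not pass the test (edgeR adjusted p = 0.280, exact permutation p = 0.4). It was 1.21 without SAR replicate 2 and 4.41 without ROH replicate 2. The mean length of the transcripts to which its reads were assigned was 852, 905 and 875 bases in SAR replicates 1, 2 and 3, against 2455, 852 and 2455 bases in ROH replicates 1, 2 and 3. ROH replicates 1 and 3, which had only 5.56 and 6.21 estimated reads of trpv6, thus had them assigned to a longer transcript than the other 4 libraries. A fit with gene length offsets gave a log2 fold change of 3.14 (edgeR adjusted p = 0.259), which did not pass the test either. The blocked fit by replicate number gave trpv6 a log2 fold change of 3.32 (edgeR adjusted p = 0.0905), also short of the threshold.

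The slc12a10.2 gene (ENSDARG00000071173) encodes the sodium-chloride cotransporter that defines NCC cells. It had 3.94, 10.8 and 5.25 CPM in SAR replicates 1, 2 and 3, against 6.56, 6.82 and 4.26 CPM in ROH replicates 1, 2 and 3. Apart from SAR replicate 2, the SAR libraries lay within or below the ROH range. For slc12a10.2 the log2 fold change was 0.23 (standard error 0.46, edgeR adjusted p = 0.841, exact permutation p = 1), and it turned to -0.30 without SAR replicate 2. Its estimated counts were whole in 0 of the 6 libraries, as were those of ca2 and trpv6, so that the estimation had divided reads of these 3 genes, and their levels are uncertain to that extent. The counts of ca15a were whole in 4 libraries. Of its neighbours by name, slc12a10.3 reached at most 3.12 CPM, in SAR replicate 2 (log2 fold change 0.78, edgeR adjusted p = 0.743), and slc12a10.1 did not pass the filter.

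Slc4a4b is the sodium-bicarbonate cotransporter of the basolateral NCC cell membrane, and SLC4A4 transporters also act in the kidney. ENSDARG00000013730, listed as SLC4A4, had 8.76, 16.1 and 7.70 CPM in SAR replicates 1, 2 and 3, against 23.4, 19.1 and 18.5 CPM in ROH replicates 1, 2 and 3. All SAR libraries were lower, and the log2 fold change of -0.88 (standard error 0.33) did not pass the test (edgeR adjusted p = 0.142, exact permutation p = 0.1). It was -1.28 without SAR replicate 2 (edgeR adjusted p = 0.0199), short of the fold threshold, and -0.67 without SAR replicate 3 (0.326). With gene length offsets it was -0.72 (edgeR adjusted p = 0.413). ENSDARG00000044808, also SLC4A4, had 10.5, 6.98 and 5.19 CPM in SAR replicates 1, 2 and 3, against 2.81, 6.17 and 5.21 CPM in ROH replicates 1, 2 and 3, with overlapping groups and a log2 fold change of 0.54 (edgeR adjusted p = 0.499).

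**Figure D3:**
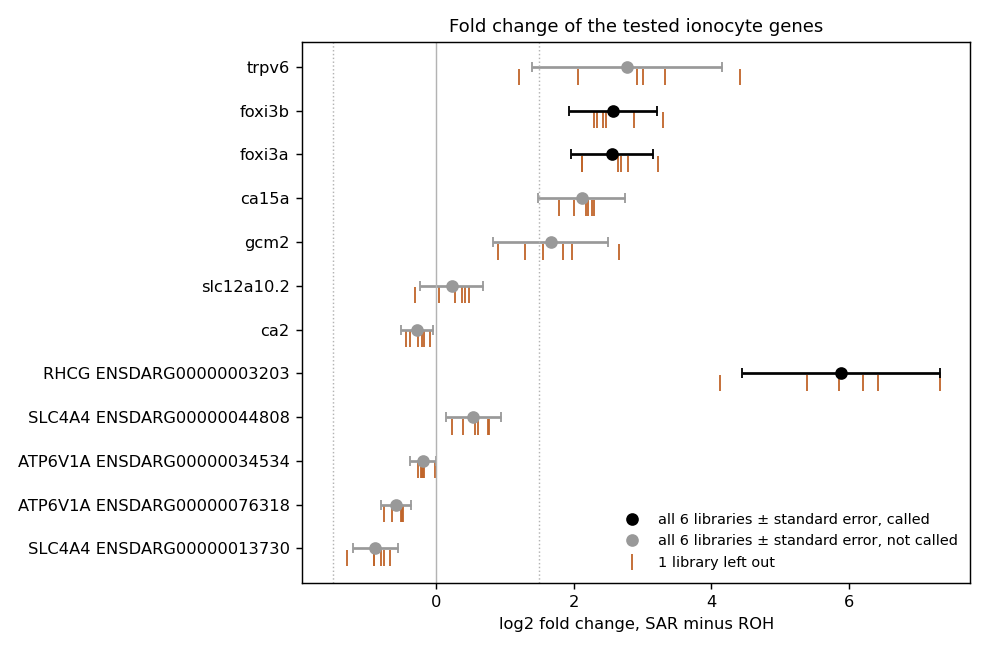
Log2 fold change of SAR over ROH (horizontal axis) for the 12 tested identifiers, with points and bars giving the fit of all 6 libraries ± standard error and ticks giving the 6 fits with 1 library left out. Called genes are black, and dotted lines mark the fold change threshold of 1.5 in each direction. The bars of trpv6 and RHCG ENSDARG00000003203 are the widest, and the ticks of slc12a10.2 fall on both sides of 0.

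Per length, as TPM, which scales each gene to its transcript length and each library to the same total, ca2 was the most abundant of the 7 genes in both fractions. In SAR the order of mean TPM was ca2 (30.8 ± 6.05), trpv6 (14.5 ± 17.8), foxi3a (7.48 ± 2.85), foxi3b (4.94 ± 2.09), ca15a (1.86 ± 0.788), slc12a10.2 (1.496 ± 0.986) and gcm2 (0.868 ± 0.718), each with the SD of 3 libraries. Neighbours in this order overlapped in their range over libraries, except foxi3b (lowest 2.78 TPM) and ca15a (highest 2.73 TPM), which nearly met. In ROH the order was ca2 (36.2 ± 9.99), trpv6 (2.18 ± 1.76), foxi3a (1.43 ± 0.742), slc12a10.2 (1.21 ± 0.321), foxi3b (0.610 ± 0.599), ca15a (0.304 ± 0.263) and gcm2 (0.194 ± 0.223). Only ca2 stood clear there, at 25.8 TPM or more in each ROH library, and all other neighbours overlapped. By mean TPM over all 31465 genes, foxi3a ranked 10740 in SAR and 19194 in ROH, and foxi3b ranked 12867 in SAR and 22666 in ROH. Both regulators were thus low to moderate transcripts even in SAR, where their TPM exceeded that of slc12a10.2 within each library.

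The wider ionocyte gene lists gave few further calls, but they were short. Over all tested genes 2.84% were called higher and 3.7% lower in SAR. Few or no calls in lists of this size therefore say little about these genes. Of 13 tested ionocyte regulators, 2 were called higher, both of them the foxi3 genes, and 1 lower, with a median log2 fold change of 0.79. The lower gene was dlc, which encodes a Delta ligand that limits ionocyte number by lateral inhibition and is also known from blood vessels. It had 4.67, 9.14 and 7.58 CPM in SAR replicates 1, 2 and 3, against 21.6, 28.2 and 12.8 CPM in ROH replicates 1, 2 and 3, without overlap. Its log2 fold change was -1.52 (standard error 0.38, edgeR adjusted p = 0.0383), close to the fold threshold, and dlc was called in only 4 of 16 alternatives, DESeq2 not among them. With the replicate number as a block it fell short of the fold threshold, at -1.45 (edgeR adjusted p = 0.0217). It was lost without SAR replicate 1 or 3 (edgeR adjusted p = 0.0711 and 0.0957) and without ROH replicate 1 or 2 (0.0924 and 0.199). The Notch ligand gene jag2b had a log2 fold change of -1.46 (edgeR adjusted p = 0.0423), just short of the fold threshold. Endothelial genes were lower in SAR as well, among them cdh5 (log2 fold change -4.80), tek (-4.81) and EGFL7 (-3.52), the 3 called lower of 6 tested endocardial and endothelial markers. In 5 of the 6 every SAR library was below every ROH library, beside 15.6% of all tested genes, and the part of these cells in the dlc and jag2b differences was not tested.

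Of the regulators with a role in the epidermis at large, GATA3, a zinc finger factor, had a log2 fold change of 0.79 (edgeR adjusted p = 0.0447), below the fold threshold, and KLF4, a Krüppel-like factor, 1.15 (adjusted p = 0.0519). TP63, the master regulator of the epidermal lineage, had 1.01 with overlapping groups (adjusted p = 0.201).

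Of the tested transport genes, 0 of 4 of the HR list, 0 of 2 of the NaR list and 0 of 2 of the KS and other list were called in either direction by edgeR, and 1 of 3 of the NCC list was called higher. The HR, NaR, KS and NCC lists held 8, 8, 7 and 4 symbols. Those not tested had no single identifier in the name table or did not pass the filter on low counts. RHCG ENSDARG00000003203, which was called higher, was therefore not counted in the HR list. At an unadjusted edgeR p below 0.05 the HR list held 2 higher genes and 1 lower, the NaR list 0 and the KS list 1 higher, while DESeq2 called 1 HR gene lower and 0 of the NaR and KS lists. The lower HR gene was ceacam1 (edgeR log2 fold change -1.70, adjusted p = 0.147), with every SAR library below every ROH library. The gene of the NCC list was atp1a1a.2 (ENSDARG00000007739), an alpha subunit of the sodium-potassium pump that NCC cells use. It had 54.7, 24.3 and 52.2 CPM in SAR replicates 1, 2 and 3, against 1.88, 1.65 and 1.89 CPM in ROH replicates 1, 2 and 3, far apart in every library (log2 fold change 4.61, standard error 0.40, edgeR adjusted p = 6.8e-04). The study's authors report transcripts of this pump gene in the heart, including the ring, by in situ hybridization. They also report a changed heartbeat rate after its knockdown. What part of the difference between the fractions goes with ionocytes was not tested for this gene. The call of atp1a1a.2 held in all 15 alternatives in which it was tested. Its paralogue of HR cells, atp1a1a.5, was at 1.90, 3.15 and 1.31 CPM in SAR replicates 1, 2 and 3, against 0.938, 0.646 and 0.737 CPM in ROH replicates 1, 2 and 3 (log2 fold change 1.57, edgeR adjusted p = 0.142).

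The families of the transporters were also taken by symbol. Their calls stand beside 2.84% higher and 3.7% lower over all tested genes. Of 28 tested V-ATPase genes, 0 were called in either direction by edgeR or DESeq2 (0 higher and 2 lower at an unadjusted edgeR p below 0.05), 10 had a higher fitted level in SAR, and the median log2 fold change was -0.13. Of 14 tested carbonic anhydrase genes, 1 was called higher and 3 lower (median -0.25). The higher one was a gene listed as CA10, ENSDARG00000052644 (log2 fold change 1.82, edgeR adjusted p = 0.00456). The lower ones were cahz, the red blood cell carbonic anhydrase, with 3.65, 2.04 and 6.72 CPM in SAR replicates 1, 2 and 3 against 157, 171 and 208 CPM in ROH replicates 1, 2 and 3 (log2 fold change -5.40, edgeR adjusted p = 5.99e-04), ca4b (-2.56, adjusted p = 0.0281) and ca9 (-2.97, adjusted p = 0.0185). The ca4b call was lost without SAR replicate 1 or 2 (adjusted p = 0.0594 and 0.0559) and without ROH replicate 3 (0.133, with a log2 fold change of -1.57). The ca9 call was lost without ROH replicate 1, 2 or 3 (0.0517, 0.0519 and 0.0623).

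Of the 4 tested Rh glycoprotein genes, RHCG ENSDARG00000003203, RHAG and RHBG were called higher and RHCE lower (log2 fold change -2.78, edgeR adjusted p = 0.0177, but 0.0547 without SAR replicate 3 and 0.0653 without ROH replicate 2). RHAG was by far the most abundant of them, at a mean of 1808 ± 398 CPM in SAR and 462 ± 188 CPM in ROH (SD, n = 3 each, log2 fold change 1.97, edgeR adjusted p = 0.00777). RHBG, an ammonia channel of the basolateral side in skin and gill, averaged 25.1 ± 5.63 CPM in SAR and 5.14 ± 1.82 CPM in ROH (log2 fold change 2.25, edgeR adjusted p = 0.00627). Of the 14 tested SLC4 genes, 0 were called higher and 1 lower, SLC4A1 ENSDARG00000012881 (log2 fold change -7.68, edgeR adjusted p = 4.12e-04), and of 11 tested SLC12 genes, 0 were called in either direction by edgeR or DESeq2. At an unadjusted edgeR p below 0.05 the SLC4 genes held 0 higher and 3 lower, and the SLC12 genes 1 higher and 1 lower.

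Markers of skin cells were also compared. Of 20 tested keratinocyte and periderm markers, 10 were called higher in SAR and 1, krt92, lower, beside 2.84% and 3.7% of all tested genes. The median log2 fold change of the 20 was 1.84. The call of krt92 (log2 fold change without SAR replicate 3 of -1.88, adjusted p = 0.0537, and without ROH replicate 3 of -1.28) rested on these libraries. Their summed level was 8894 to 12565 TPM in SAR, against 2836 to 4265 TPM in ROH. Within SAR the sum was highest in replicate 2, which had the lowest levels of foxi3a and foxi3b, and lowest in replicate 3, which had the highest level of foxi3b. Single markers differed in this order. In TPM within SAR, most of the 20 were highest in replicate 2, among them icn and krt4, the largest parts of the sum. Those highest in SAR replicate 3 were TP63, krt5, krt1-19d and cldni. Those highest in SAR replicate 1 were cyt1, cyt1l and agr1. In 14 of the 20 every SAR library was above every ROH library, beside 14.3% of all tested genes. Among the called genes were the periderm keratin krt4 (log2 fold change 3.10), the keratin genes cyt1l (6.38) and cyt1 (5.77), and the tight junction gene cldne (6.36). The summed level of the 4 foxi genes was 10.9 to 17.6 TPM in SAR, against 3.27 to 5.36 TPM in ROH. What part of the foxi3a, foxi3b, ca15a and RHCG differences goes with the skin markers was not tested.

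**Figure D4:**
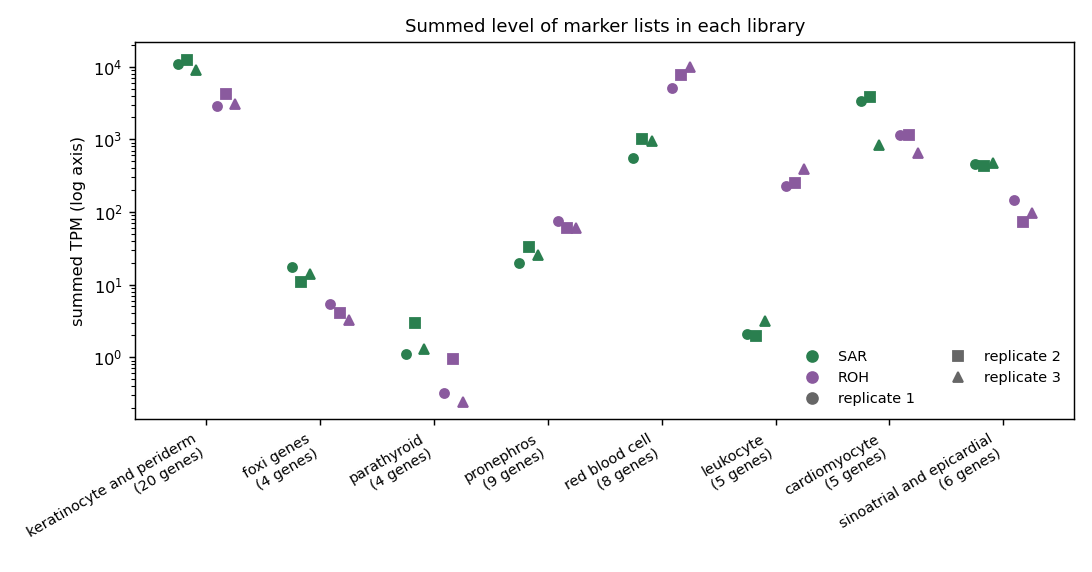
Summed level of each marker list in TPM (vertical axis, logarithmic) in the 3 SAR libraries (green, left) and the 3 ROH libraries (purple, right), with symbols for the replicate and the number of genes found under each name. The keratinocyte and periderm, foxi, parathyroid, and sinoatrial and epicardial sums are higher in every SAR library. The red blood cell, leukocyte and pronephros sums are higher in every ROH library, and the cardiomyocyte sums overlap.

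Other organs also express members of the ionocyte list. The parathyroid hormone genes pth1a and pth1b reached at most 0.818 and 0.472 TPM in any library, both in SAR, and pth1b was at 0 in the 3 ROH libraries and SAR replicate 1. All 4 parathyroid markers, which include gcm2, summed to 1.102 to 2.94 TPM in SAR and 0.239 to 0.947 TPM in ROH. The sums were highest in SAR replicate 2 and ROH replicate 2, where gcm2 itself gave 1.67 and 0.438 TPM. A shared order of gcm2 and this sum is therefore partly built in. Within SAR, pth1a was highest in replicate 1 and pth1b in replicate 3. The pth1a value of SAR replicate 1 was 0.292 CPM, below the limit of 0.437 CPM for that library, so its place is not resolved. The 9 pronephros markers summed to 19.5 to 33.1 TPM in SAR and 60.4 to 76.1 TPM in ROH. Of 6 tested, 0 were called higher by edgeR or DESeq2 (0 at an unadjusted edgeR p below 0.05) and 1, CDH17, lower. Over all tested genes 2.84% were called higher and 3.7% lower by edgeR. The median log2 fold change of the tested pronephros markers was -0.45. The summed levels of the 3 mucous cell markers overlapped, at 41.3 to 252 TPM in SAR and 51.2 to 80.0 TPM in ROH. SPDEF, which did not pass the filter, was above every ROH library in every SAR library. However, its 0 in ROH replicate 1 allows a level of up to 2.81 CPM, above its highest SAR value of 1.02 CPM.

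Markers of blood cells and of some heart cells also differed between the fractions. The sums cover only symbols with a single identifier. These were 8 of 13 red blood cell, 5 of 9 leukocyte and 5 of 13 cardiomyocyte symbols. They were 6 of 9 for the sinoatrial and epicardial list and 6 of 9 for the endocardial and endothelial list. Left out were, among others, the hbbe globin genes and the cardiomyocyte genes myh6, vmhc and nkx2.5. Red blood cell markers summed to 545 to 1005 TPM in SAR and 5099 to 9967 TPM in ROH. Nearly the whole SAR sum was RHAG, which the list holds and which was called higher. The other 7 genes summed to 16.4 to 19.5 TPM in SAR and 4979 to 9685 TPM in ROH. Leukocyte markers summed to 1.96 to 3.17 TPM in SAR and 226 to 391 TPM in ROH. Cardiomyocyte markers were detected in both fractions, as the heart label calls for, at 830 to 3808 TPM in SAR and 651 to 1146 TPM in ROH. These sums overlapped, with SAR replicate 3 the lowest of SAR. Of 5 tested cardiomyocyte markers, 1, nppb, was called higher, beside 2.84% of all tested genes. The nppb call held in 1 of 6 leave-one-out fits. Sinoatrial and epicardial markers were at 435 to 476 TPM in SAR and 72.4 to 145 TPM in ROH, with TBX18, TCF21 and wt1b called higher. These genes, at means of 98.8, 156 and 107 TPM, made up most of the SAR sum. The symbols hcn4, tbx2b and tbx3a had no single identifier and are not in it. BMP4 had every SAR library above every ROH library, with a log2 fold change of 1.21 (edgeR adjusted p = 0.0246), below the fold threshold. Of the sinoatrial factors in that list, ISL1 averaged 12.7 TPM in SAR and 38.9 TPM in ROH with overlapping libraries (log2 fold change -1.56, edgeR adjusted p = 0.163), and SHOX2 averaged 3.41 TPM in both fractions. ISL1 was the 1 gene of the list that DESeq2 called lower, so its call depended on the method. Its ROH level was 78.9, 24.8 and 12.9 TPM in replicates 1, 2 and 3. Endocardial and endothelial markers summed to 310 to 414 TPM in SAR and 478 to 1145 TPM in ROH. SAR replicate 3, lowest in cardiomyocyte markers, had the highest level of foxi3b in SAR and a level of foxi3a between those of the other two SAR libraries.

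The genes whose log2 CPM over the 6 libraries was most like that of foxi3a were CACNA1B, tiparp, crocc2, IRF8 and nectin3b, with Pearson's r between 0.983 and 0.994. Those most like foxi3b were si:dkey-108k21.10, sema6ba, MAP1S, glud1a and WWC1, with r between 0.994 and 0.997. With only 6 libraries in 2 fractions, such values are a description of these samples. IRF8, the only one of these 10 genes called higher in SAR, had a log2 fold change of 2.37 (edgeR adjusted p = 0.029). No gene stood among the 5 nearest of both foxi3a and foxi3b.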

How the data were processed

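Per the labels and the study's methods, RNA of FACS-sorted heart cells was reverse transcribed with SMART-Seq v4, and Nextera XT libraries gave paired reads of 75 bp. The submitters' processing notes name bcl2fastq 2.16.10, cutadapt and Salmon with build GRCz11. The authors deposited, per gene and library, an estimated count from Salmon and a TPM value, which is normalized to transcript length and library total.

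Estimated counts were rounded, filtered with filterByExpr (minimum count 10, minimum total count 15), scaled by TMM (factors 0.915 to 1.07) and tested with edgeR 4.0.16 (R 4.3.3) over 21969 genes, on fraction alone, with Benjamini-Hochberg adjustment. The fold change threshold of 1.5 on the log2 scale follows the study's methods. Single genes were also compared by an exact two-sided permutation test of log2 CPM (prior count 2). Procedures were tested on simulated data. Symbols were taken from a gene name table, which left 2500 genes without one. Alternatives used DESeq2 1.42.0, limma 3.58.1, other scalings and filters, gene length offsets, thinned counts, a replicate block and each library left out.

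The members and gene lists were chosen with earlier results of these data known. Transporter families by symbol were defined after the data were seen. Named genes were all members, the called genes of each list (at most 4 per direction), paralogues nearest to a member by symbol, the 5 genes most like each foxi3 gene, and markers needed to state a list's level. From the regulators, jag2b, GATA3, KLF4 and TP63 were named after their values were seen. Coordinates and sequences are not given here.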

Additional observations from a re-analysis of the deposited data

How the results depend on the processing

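The count of ionocyte genes called higher in SAR was 2 under DESeq2, RLE size factors, library totals, limma on log2(TPM + 1), no filter, length offsets and the replicate block, and 1 under limma on log2(TPM + 0.1), where foxi3b had an adjusted p of 0.0874. It was 0 with at least 10 counts in every library and 0 with counts thinned to the smallest library, where only 1 of the 7 genes could be tested. Leaving out 1 library gave 0 to 2, with 2 only without SAR replicate 2. The count called lower was 0 in every alternative run. Over all genes, 624 were called higher and 813 lower. These counts were 215 and 391 with at least 10 counts in every library, fewer genes (11306) being tested, and 398 higher with thinned counts, with ranges of 369 to 647 higher and 442 to 1035 lower when 1 library was left out, the lowest of each without ROH replicate 2. The cause of that fall was not tested. Library totals moved the median of all genes by -0.11 on the log2 scale, and foxi3a then had 2.42 and foxi3b 2.49. Among the members, the direction changed only for slc12a10.2, to -0.30 without SAR replicate 2, with 0.48 at the other end of its range, without SAR replicate 1.

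With the replicate block, 719 genes were called higher and 1040 lower, and foxi3a and foxi3b stayed called (adjusted p = 0.0191 and 0.0203). Deviations of same-numbered libraries correlated at 0.0985, 0.273 and 0.124, with the first pair below 0.1, and 6 of 6 libraries correlated best with their own number. The methods describe pooled hearts sorted into both fractions without saying that a number marks a pool, so same-numbered libraries may be pairs. Among the members and the called genes of the lists, the block ended the call of dlc only. Depth limited the comparison, since ROH replicate 1 held 999437 counts and could not resolve levels of the order of gcm2 or ca15a.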
